A study of Mus musculus with 8 samples.

Results

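mmu-miR-142a-3p, mmu-miR-142a-5p and mmu-miR-223-3p (miR-142a-3p, miR-142a-5p and miR-223-3p below) are miRNAs that mark cells of haematopoietic origin, and their signal was followed here in whole mouse kidney. They were chosen by name from the array's list of mouse miRNAs, with every probe of each, and are 3 of the 1023 mouse miRNA names on the array. The tacrolimus group held 4 kidney RNA samples of CD-1 mice, an outbred stock, that had received 28 days of tacrolimus, dosed at 1 mg per kg each day. The control group held 4 kidney RNA samples of CD-1 mice that had received physiological serum. Each sample was hybridised to 1 one-colour (Cy3) miRNA array. Whether the 4 samples of a group came from 4 mice is not given in the labels, and p-values therefore cover only the variation among these samples, which could be technical.

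miRNAs are short RNAs that guide a silencing complex to messenger RNAs, mainly through the seed near their 5′ end. The hairpin of miR-142 is made in nearly all blood lineages and gives rise to a functional miRNA from either arm. miR-223-3p is a miRNA of the myeloid lineage, abundant in neutrophils, monocytes and platelets, and known as a brake on granulocyte maturation and activation. In kidney these miRNAs are carried by blood cells in the vessels and by resident or infiltrating leukocytes, while tubule cells make little of them. Tacrolimus inhibits the phosphatase calcineurin, which T cells need for activation through NFAT, and it can injure the kidney. The comparison addresses how kidney miRNA levels differ after treatment. In a whole-tissue sample a change in the number of such cells and a change in RNA per cell cannot be told apart.

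The mature sequences are shown because they carry the seeds (bases 2 to 8, in capitals) by which the miRNAs would be grouped. They are RefSeq sequences of mouse assembly GRCm38.p6, and all 3 names were matched. miR-142a-5p and miR-142a-3p lie on the plus strand at chr11:87756867-87756887 and chr11:87756903-87756925 in the gene Mir142. miR-223-3p lies on the plus strand at chrX:96242884-96242905 in the gene Mir223.
miR-142a-3p: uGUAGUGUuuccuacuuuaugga
miR-142a-5p: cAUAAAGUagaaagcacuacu
miR-223-3p: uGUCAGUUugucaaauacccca

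The 3 seeds differ from each other, and none was found in any other of the 1679 mature mouse miRNA names of the table (0 others for each). The hairpins are shown to place the arms, whose bases are in capitals.
Mir142: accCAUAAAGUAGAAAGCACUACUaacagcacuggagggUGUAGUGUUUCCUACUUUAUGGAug
Mir223: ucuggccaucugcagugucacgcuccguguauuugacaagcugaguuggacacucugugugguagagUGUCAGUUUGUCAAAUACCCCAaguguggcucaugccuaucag

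The Mir142 hairpin is 64 bases long and both of its arms are measured on the array. Its annotation overlaps that of Mir142b on the opposite strand, and the nearest protein-coding genes are Supt4a and Tspoap1. Mir223 (110 bases) lies within the long non-coding RNA gene F630028O10Rik, between the coding genes Msn and Vsig4.

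Each miRNA was read by 2 probes of 20 spots, so that 120 spots per array carried the 3 miRNAs. The probes are shown because they differ only in the base in capitals, by which the longer one reaches closer to the 5′ end of the miRNA.
miR-142a-3p, 22-base probe: tccataaagtaggaaacactac
miR-142a-3p, 23-base probe: tccataaagtaggaaacactacA
miR-142a-5p, 18-base probe: agtagtgctttctacttt
miR-142a-5p, 19-base probe: agtagtgctttctactttA
miR-223-3p, 20-base probe: tggggtatttgacaaactga
miR-223-3p, 21-base probe: tggggtatttgacaaactgaC

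The probes were complementary to bases 2 to 23 and 1 to 23 of miR-142a-3p, to bases 4 to 21 and 3 to 21 of miR-142a-5p, and to bases 3 to 22 and 2 to 22 of miR-223-3p. The longest run of bases that another mature mouse miRNA shared with miR-142a-3p or with miR-223-3p was 9. For miR-142a-5p it was 13, in miR-3964. miR-142b is read from the opposite strand, and all 20 of its bases are the reverse complement of miR-142a-3p, so its sequence resembles the probes rather than their target.

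Signals are given as log2 of the background-subtracted spot intensity, averaged over a probe's spots and divided by the array's 75th percentile, taken over the 252 probes that were detected on every array. A value of 0 equals that percentile, and a floor was set at -5.96. Each miRNA is represented by its brightest probe, which was the longer one for all 3. A miRNA was tested if this probe was detected on at least 4 arrays, which left 194 miRNAs. Between 9.60% and 15.2% of probes were detected per array in the tacrolimus group and between 10.47% and 13.7% in the control group. Pairs of arrays had correlations of 0.987 to 0.997. On tacrolimus 4 the number of detected miRNAs was lowest (147) and negative control spots spread most (SD 20.01, against 4.45 to 10.48 on the other arrays), and values without it are given below. The slide had 2 rows, 1 per group, and row and treatment cannot be told apart. The number of arrays limits the precision.

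All 3 miRNAs were higher on average in the kidneys of tacrolimus-treated mice, and none passed the test. Under the processing described above they differed by about the same amount. With normexp background correction the log2 difference was 0.52 for miR-142a-3p, 0.51 for miR-223-3p and 0.19 for miR-142a-5p. As reported, the differences were 1.56-fold for miR-142a-3p, 1.52-fold for miR-223-3p and 1.47-fold for miR-142a-5p. Their 95% intervals were 1.12 to 2.18, 1.18 to 1.96 and 1.01 to 2.13 in limma. Of the 3 miRNAs 0 were past the threshold (adjusted p below 0.05 in limma over the 194 tested miRNAs), where 6 of all 194 were, all of them higher (3.09%). Those calls depended on single arrays. Higher calls numbered 6 without tacrolimus 3, 1 without tacrolimus 2 and 0 in limma without any 1 of the other 6 arrays (22 to 32 miRNAs in either direction at an unadjusted p under 0.05). All 3 had an unadjusted p under 0.05, as did 21 of the 194 miRNAs with a higher signal (10.8%) and 9 with a lower one (4.64%).

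miR-142a-3p, without whose gene mice form platelets and lymphocytes abnormally, had the largest of the 3 differences. Its log2 signal was -1.54, -1.39, -1.79 and -1.996 on the tacrolimus arrays 1 to 4, against -1.78, -2.17, -2.66 and -2.69 on the control arrays 1 to 4. The groups overlapped, since control 1 lay above tacrolimus 3 and 4, while the other 3 control arrays lay below every tacrolimus array. The group means were -1.68 ± 0.27 in tacrolimus kidneys and -2.32 ± 0.43 in control kidneys (SD, n = 4 each). The difference of 0.64 (SE 0.213) had an adjusted p of 0.191 in limma. Before scaling, the mean spot intensity was 771, 864, 475 and 554 on the tacrolimus arrays and 736, 426, 226 and 270.2 on the control arrays, and every kept spot was well above background on all 8 arrays.

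miR-142a-5p, the other arm of the hairpin, was dimmer and ranked the arrays within each group in the same order as miR-142a-3p. Its log2 signal was -3.95, -3.90, -4.36 and -4.60 on the tacrolimus arrays, against -4.19, -4.54, -5.12 and -5.16 on the control arrays. Control 1 and control 2 lay within the tacrolimus range, and control 3 and control 4 lay below every tacrolimus array. The group means were -4.20 ± 0.34 in tacrolimus kidneys and -4.76 ± 0.47 in control kidneys (SD, n = 4 each). The difference of 0.55 (SE 0.240) had an adjusted p of 0.301 in limma. The unscaled intensity was 144, 152, 80.3 and 91.0 on the tacrolimus arrays and 138, 82.1, 41.1 and 48.5 on the control arrays. On tacrolimus 4 only 50% of the kept spots of this probe were well above background, and on control 3 only 15.8%, so that control 3 did not count as detected. Without these 2 arrays the difference was 0.51 (adjusted p = 0.514, limma), and with normexp background correction on all 8 arrays it was 0.19.

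miR-223-3p, the myeloid miRNA, had the narrowest control group of the 3 and the smallest p. Its log2 signal was -1.63, -1.32, -2.06 and -1.60 on the tacrolimus arrays, against -2.04, -2.13, -2.35 and -2.52 on the control arrays. The groups overlapped by 1 pair of arrays, as tacrolimus 3 lay just below control 1 and the other 3 tacrolimus arrays lay above every control array. The group means were -1.65 ± 0.30 in tacrolimus kidneys and -2.26 ± 0.22 in control kidneys (SD, n = 4 each). The difference of 0.61 (SE 0.161) had an adjusted p of 0.0911 in limma, and without tacrolimus 3 it was 0.74 with an adjusted p of 0.0323. The unscaled intensity was 721, 908, 395 and 729.5 on the tacrolimus arrays and 614, 438, 280.2 and 303 on the control arrays, with every kept spot well above background. The opposite arm, miR-223-5p, was read by 3 probes and was not well above background on any of the 8 arrays (0 detected).

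**Figure D1:**
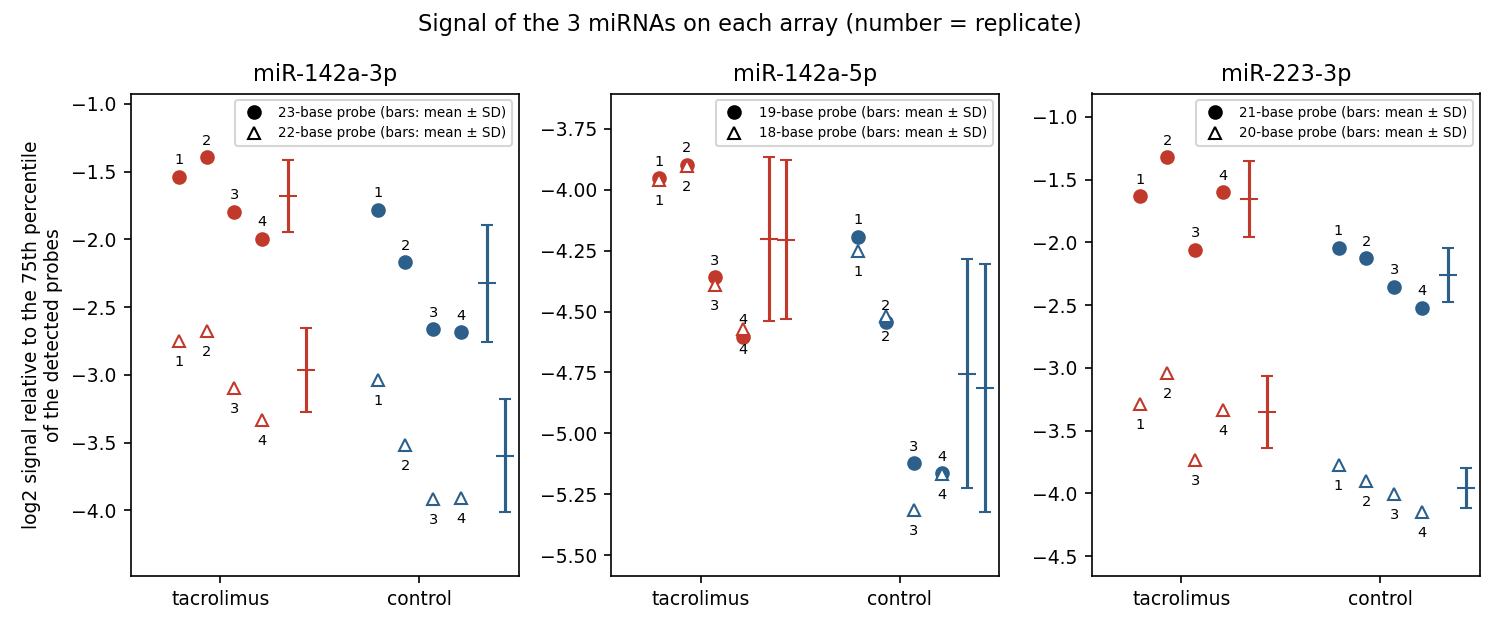
Log2 signal of miR-142a-3p, miR-142a-5p and miR-223-3p on each array, relative to the 75th percentile of the detected probes, with tacrolimus arrays in red and control arrays in blue. Filled circles are the longer probe and open triangles the shorter one, numbers are replicates and bars are the mean ± SD of 4 arrays; control 1 reaches into the tacrolimus range of all 3 longer probes.

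The second probe of each miRNA gave nearly the same difference. In a fit over all 357 probes detected on at least 4 arrays, the 22-base probe of miR-142a-3p stood at 0.63 (SE 0.215, adjusted p = 0.208, limma), the 18-base probe of miR-142a-5p at 0.61 (SE 0.249, adjusted p = 0.284) and the 20-base probe of miR-223-3p at 0.61 (SE 0.142, adjusted p = 0.0705). On this shorter miR-223-3p probe the groups did not overlap. Its log2 signal was -3.29, -3.04, -3.74 and -3.33 on the tacrolimus arrays, against -3.77, -3.90, -4.004 and -4.15 on the control arrays. The gap between the lowest tacrolimus and the highest control array was narrow, and 24 of the 357 probes (6.72%) had every tacrolimus array above every control array. None of the 6 probes passed the threshold (0 in limma), as none of the 357 probes was past it with a higher signal (0%). All 6 had an unadjusted p under 0.05, as did 38 of the 357 probes with a higher signal (10.6%). The probes of 1 miRNA read the same RNA and are not replicates.

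The differences of the 3 miRNAs were large beside those of other miRNAs, and so was their spread. Ranked by difference from the highest down, miR-142a-3p, miR-223-3p and miR-142a-5p stood at places 3, 4 and 5 of 194, after miR-342-3p and miR-214-3p. By unadjusted p their places were 13, 9 and 30. The median difference of the 194 miRNAs was 0.04, with 59.3% above 0. The SD within groups, pooled over both, was 0.36 for miR-142a-3p, 0.41 for miR-142a-5p and 0.26 for miR-223-3p, against a median of 0.13 over all tested miRNAs. From the most variable down these were places 15, 10 and 29 of 194. The 16 miRNAs (8.25%) in which every tacrolimus array exceeded every control array included none of the 3 (0 of 3).

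**Figure D2:**
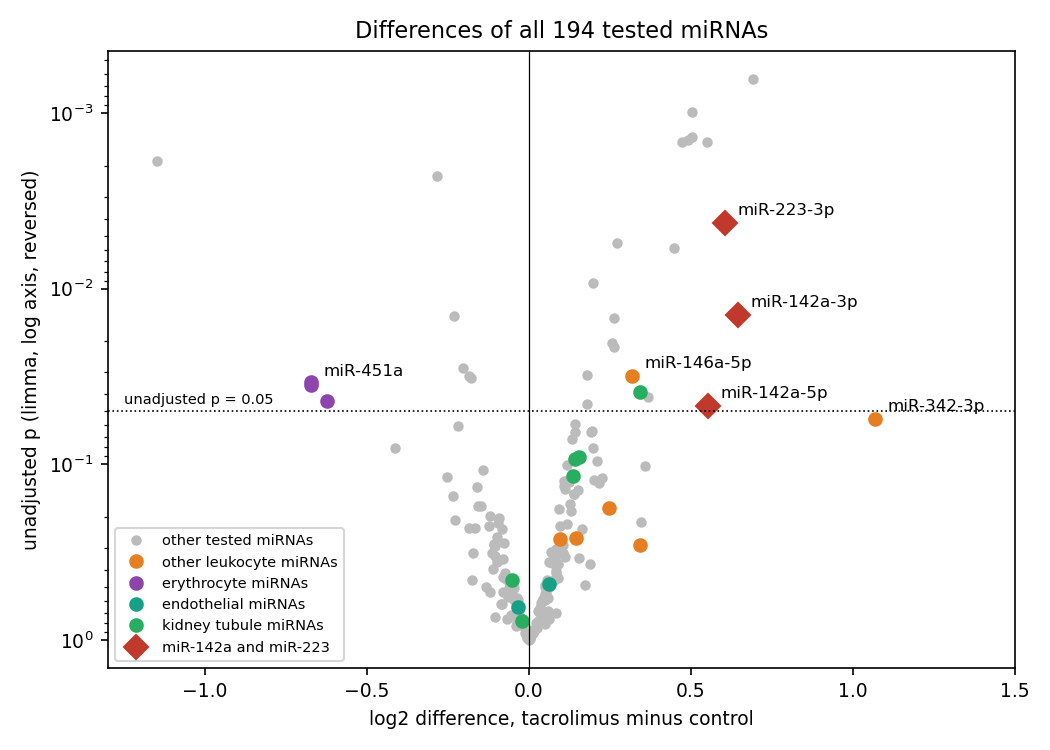
Log2 difference (tacrolimus minus control, horizontal axis) against the unadjusted p of limma (vertical log axis, smaller values higher) for the 194 tested miRNAs. The 3 red diamonds lie at 0.55 to 0.64, to the right of nearly all other miRNAs, and the 3 erythrocyte miRNAs lie at -0.62 to -0.67.

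The arms of miR-142a moved together from array to array. Over the 8 arrays their log2 signals had a Pearson's r of 0.99 (Spearman's rho 0.98), and 0.95 without the 2 arrays farthest from the median. After the group means were removed r was 0.99. The change of the 3p arm exceeded that of the 5p arm by 0.09 on the log2 scale, which did not pass an exact two-sided permutation test over arrays (p = 0.114, where 4 against 4 arrays allow no p below 0.0286). With normexp background correction this excess was 0.33 (exact p = 0.0571). miR-223-3p followed miR-142a-3p less closely, at r = 0.86 (rho 0.86) over the 8 arrays, 0.68 without the 2 farthest arrays and 0.69 after the group means were removed. With miR-142a-5p its r was 0.81 (rho 0.76), 0.54 without the 2 farthest arrays and 0.68 after the group means were removed. All of these values come from the same 8 RNA samples and share each array's scaling. Of the 3 pairwise comparisons of change none passed (0 with exact permutation tests). After adjustment over the 3 a single differing pair could not pass with 4 against 4 arrays, so equal changes are not shown. The change of miR-142a-3p exceeded that of miR-223-3p by 0.04 (adjusted p = 0.83), the change of miR-142a-5p minus that of miR-223-3p was -0.05 (adjusted p = 0.83), and the comparison of the arms had an adjusted p of 0.343.

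The arrays of each slide column were 1 of each group, and the differences within columns were above 0 in 4 of 4 columns for each miRNA. For miR-142a-3p they were 0.24, 0.78, 0.87 and 0.69 in columns 1 to 4. For miR-142a-5p they were 0.24, 0.65, 0.76 and 0.56. For miR-223-3p they were 0.41, 0.80, 0.29 and 0.92. The column with the smallest difference was column 1 for both arms of miR-142a and column 3 for miR-223-3p. How many of all 194 miRNAs had 4 of 4 columns above 0 was not counted, while 59.3% had a mean difference above 0. The 16 (8.25%) with every tacrolimus array above every control array necessarily did so. Over all 194 miRNAs same-numbered arrays deviated together only weakly (r of 0.09 to 0.14) and were not treated as pairs. That r does not describe the 3 miRNAs, whose SE was smaller with the column as a block. It was 0.115 in place of 0.213 for miR-142a-3p, 0.102 in place of 0.240 for miR-142a-5p and 0.123 in place of 0.161 for miR-223-3p. None passed the threshold in that fit (adjusted p = 0.0607, 0.0607 and 0.0766, limma).

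The signal of the 3 miRNAs also followed the brightness of the arrays after scaling. The scaling factor, the array's 75th percentile of detected probes, was 1649 to 2270 on the tacrolimus arrays and 1431 to 2527 on the control arrays, and it did not differ between groups beyond its spread (0.15 on the log2 scale, exact two-sided permutation p = 0.457). Its log2 value had an r of 0.72 with miR-142a-3p, 0.73 with miR-142a-5p and 0.67 with miR-223-3p over the 8 arrays (rho 0.74, 0.71 and 0.71; r without the 2 farthest arrays 0.81, 0.79 and 0.64). These were places 7, 6 and 13 of 194 from the highest, where the median r was 0.06. With the log2 factor as a covariate the differences were 0.50, 0.39 and 0.50 (adjusted p = 0.203, 0.338 and 0.0795, limma). The part of brightness in the differences was not otherwise tested. The factor itself is made from the same arrays.

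The array of tacrolimus 4 and those with extreme values moved the differences without turning them. Without tacrolimus 4 they were 0.64 for miR-142a-3p, 0.57 for miR-142a-5p and 0.48 for miR-223-3p (adjusted p = 0.236, 0.285 and 0.259, limma). Without control 1, the control array with the highest signal of all 3, they were 0.83, 0.74 and 0.68 (adjusted p = 0.0588, 0.101 and 0.0690).

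**Figure D3:**
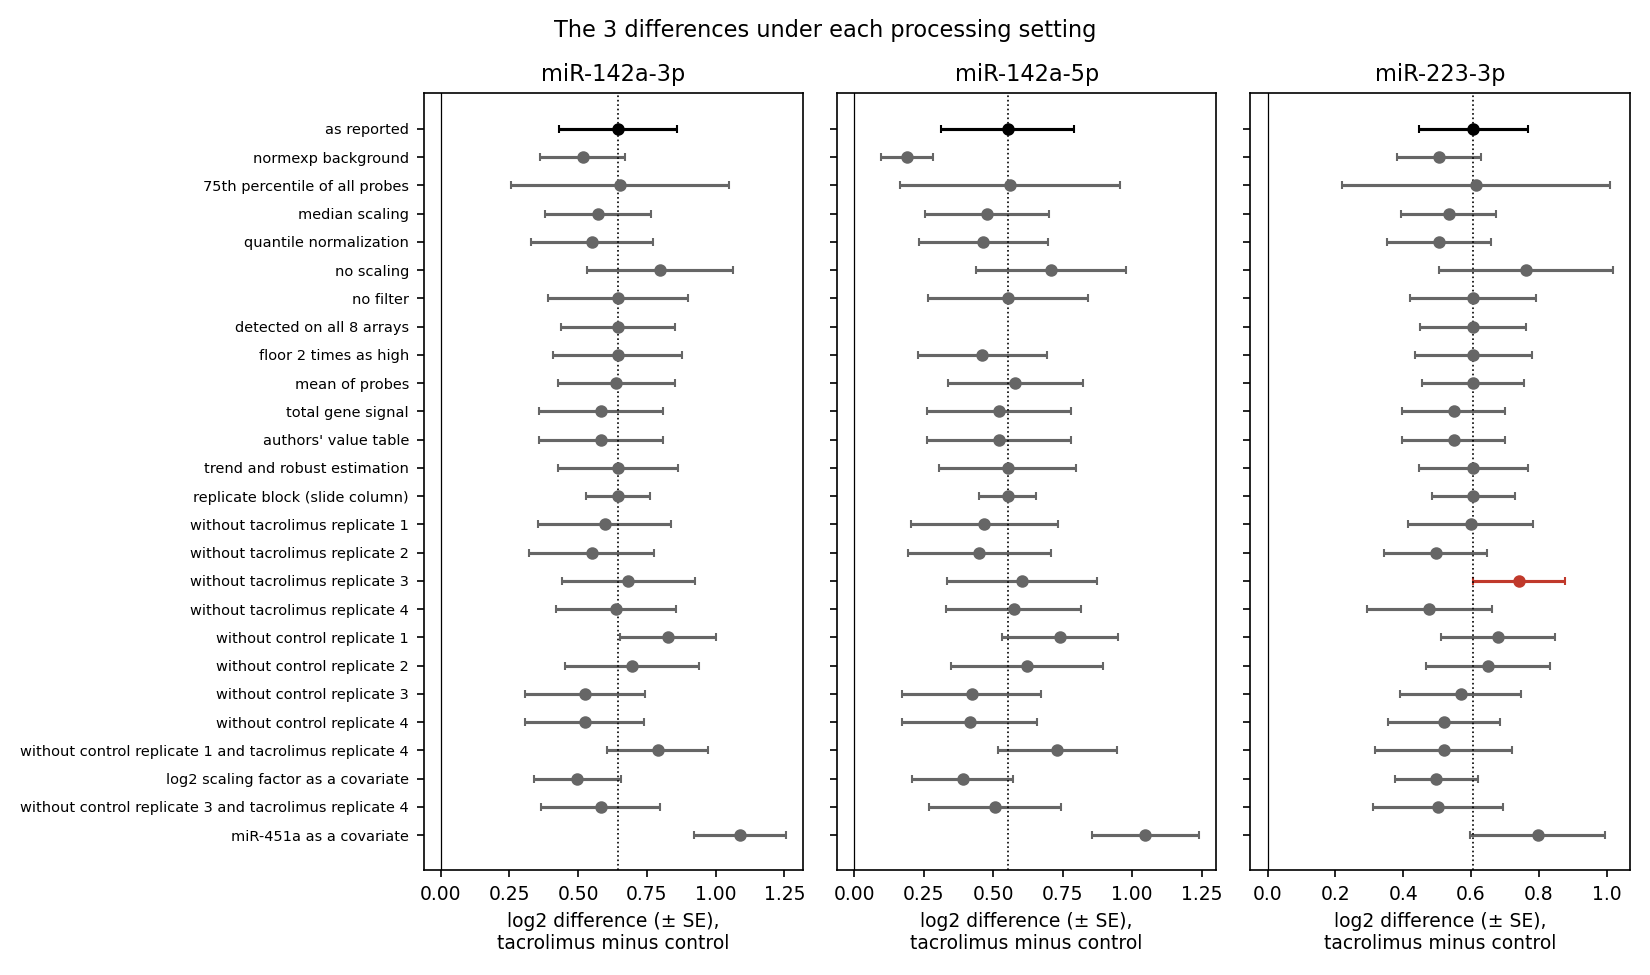
Log2 difference (tacrolimus minus control) with its SE for each miRNA under the reported processing (top, black) and each alternative, with the vertical line at 0 marking no difference. Every value lies above 0, and the 1 value in red, miR-223-3p without tacrolimus replicate 3, passed the threshold (adjusted p = 0.0323, limma).

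Other miRNAs of leukocytes also stood higher on average in the tacrolimus kidneys, with 1 exception by smaller amounts, and none passed the test (0). Of 13 listed, all on the array, 6 were tested, of which 0 rose and 0 fell in limma and 1 had an unadjusted p under 0.05 (10.8% of all tested miRNAs were higher at that p). The 6 differences were all above 0, where 59.3% of all 194 were, and their median was 0.28 against 0.04 for all 194. The summed signal of the 6, in multiples of the 75th percentile, was 0.354 to 0.496 on the tacrolimus arrays and 0.317 to 0.405 on the control arrays, so that the groups overlapped. Summed in the same way, the 3 miRNAs of miR-142a and miR-223 reached 0.577 to 0.847 on the tacrolimus arrays and 0.358 to 0.589 on the control arrays.

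miR-146a-5p, which NF-kappaB induces in activated leukocytes, had the smallest p of the list. Its log2 signal was -2.40, -2.30, -2.61 and -2.92 on the tacrolimus arrays, against -2.81, -2.87, -2.96 and -2.86 on the control arrays. Only tacrolimus 4 lay among the control arrays, and the difference was 0.32 (SE 0.126, adjusted p = 0.273, limma). miR-342-3p, a miRNA of lymphocytes, had the largest difference of all 194 miRNAs and also the widest spread. It was detected on 3 arrays of each group, with -3.70, -3.53, -4.03 and -5.47 on the tacrolimus arrays, against -4.37, -5.91, -5.96 and -4.75 on the control arrays, where -5.96 is the floor. The difference of 1.07 (SE 0.487, adjusted p = 0.347, limma) is uncertain for that reason. miR-150-5p, which marks mature lymphocytes, was near the floor at -5.35 ± 0.21 in tacrolimus kidneys and -5.59 ± 0.34 in control kidneys (SD, n = 4 each; difference 0.25, adjusted p = 0.535, limma). The remaining 3 tested leukocyte miRNAs differed by 0.10 to 0.34.

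**Figure D4:**
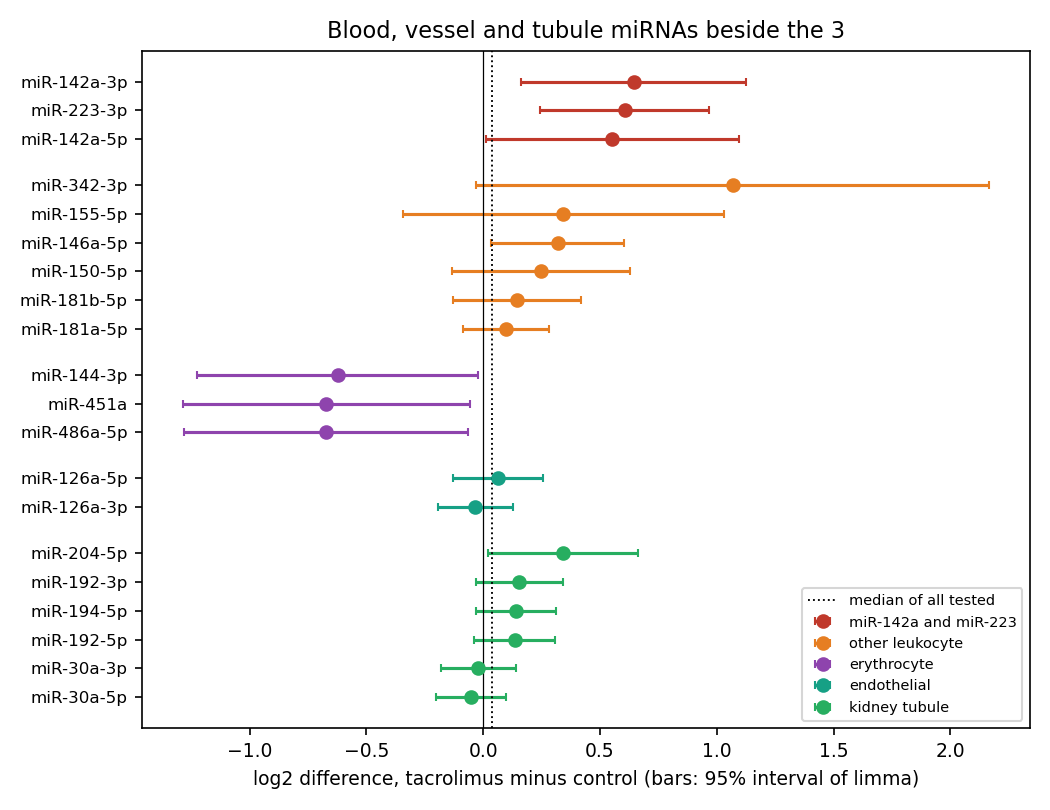
Log2 difference (tacrolimus minus control) with the 95% interval of limma for miR-142a and miR-223 and for the tested members of 4 marker lists, with the median of all tested miRNAs as a dotted line. The 3 leading points lie at 0.55 to 0.64, the 6 other leukocyte miRNAs at 0.10 to 1.07 and the 3 erythrocyte miRNAs at -0.67 to -0.62.

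Erythrocyte miRNAs, which also come with the blood of the tissue, stood lower in the tacrolimus kidneys while miR-142a and miR-223 stood higher. Of 5 listed, 3 were tested, of which 0 passed in limma and 3 had an unadjusted p under 0.05 with a lower signal (4.64% of all tested). miR-451a, the dominant miRNA of red cells, was 1.22, 1.22, 1.26 and 0.84 on the tacrolimus arrays, against 2.48, 2.09, 1.66 and 1.01 on the control arrays. Control 4 lay within the tacrolimus range, and the difference was -0.67 (SE 0.272, adjusted p = 0.273, limma). miR-486a-5p, detected on 3 tacrolimus and 2 control arrays, differed by -0.67 (SE 0.270, adjusted p = 0.273, limma). It was near the floor, with tacrolimus 4 at the floor of -5.96 and control 4 at -5.86. The third, miR-144-3p, which is made from the same cluster as miR-451a, differed by -0.62 (adjusted p = 0.301) and was named after its values were seen. The summed signal of the 3 was 1.88 to 2.50 on the tacrolimus arrays and 2.09 to 5.81 on the control arrays.

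In the control group miR-142a and miR-451a varied together. The 4 control arrays had the same order by miR-451a as by miR-142a-3p, with control 1 highest and control 4 lowest in each. In the tacrolimus group, tacrolimus 4 was lowest in both, while arrays 1 to 3 were nearly level in miR-451a (1.22 to 1.26) and not in miR-142a-3p (-1.79 to -1.39). After the group means were removed, miR-451a had an r of 0.86 with miR-142a-3p, 0.84 with miR-142a-5p and 0.50 with miR-223-3p over the 8 arrays. Without that step the values were -0.00, 0.12 and -0.28 (rho 0.07, 0.21 and -0.24), and without the 2 farthest arrays they were -0.29, -0.04 and -0.60. With the miR-451a signal of each array as a covariate the differences were 1.09 for miR-142a-3p, 1.05 for miR-142a-5p and 0.80 for miR-223-3p (SE 0.166, 0.193 and 0.200, adjusted p = 0.0517, 0.0615 and 0.116, limma), so that none passed the threshold. miR-451a itself was lower on average in the tacrolimus group without passing the threshold (adjusted p = 0.273, limma). The part of blood content in the differences was not otherwise tested.

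**Figure D5:**
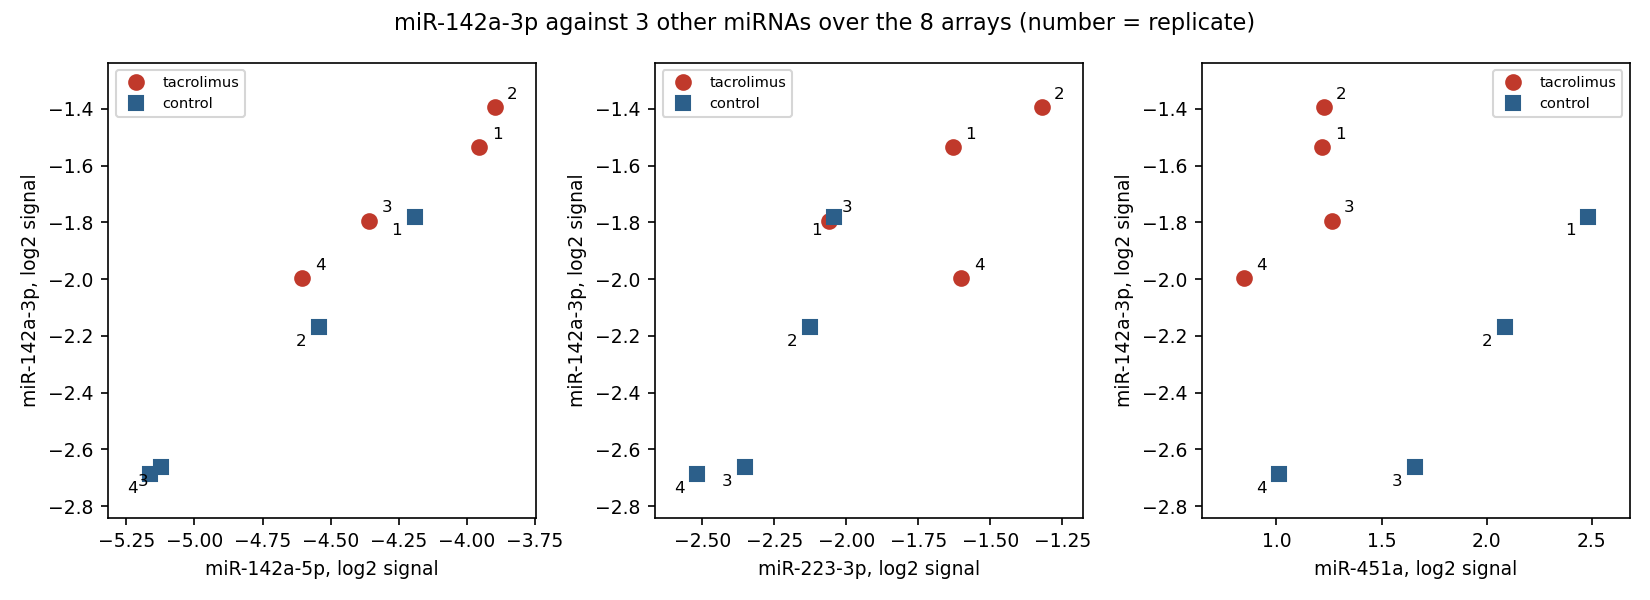
Log2 signal of miR-142a-3p (vertical axis) against that of miR-142a-5p, miR-223-3p and miR-451a on the 8 arrays, with tacrolimus arrays as red circles and control arrays as blue squares, numbered by replicate. The arms of miR-142a fall close to 1 line, while miR-451a spans 0.84 to 1.26 on the tacrolimus arrays and 1.01 to 2.48 on the control arrays.

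The miRNAs of vessels and tubules differed less than miR-142a and miR-223 did, though their range overlapped that of the other leukocyte miRNAs. The 2 endothelial miRNAs, miR-126a-3p and miR-126a-5p, stood at -0.03 and 0.06 (adjusted p = 0.837 and 0.747, limma), with a summed signal of 3.56 to 3.79 on the tacrolimus arrays and 3.44 to 4.09 on the control arrays. Of 8 listed tubule miRNAs 6 were tested and 0 passed in limma, with 1 higher at an unadjusted p under 0.05 (10.8% of all tested). Above 0 were 4 of 6, where 59.3% of all tested miRNAs were, and the median was 0.14. Among the 4 were miR-192-5p at 0.13, miR-192-3p at 0.16 and miR-204-5p at 0.34 (adjusted p = 0.467, 0.440 and 0.289), while miR-30a-5p and miR-30a-3p, named after their values were seen, stood at -0.05 and -0.02. The summed signal of the tubule miRNAs was 9.94 to 10.75 on the tacrolimus arrays and 9.71 to 10.54 on the control arrays.

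The miRNAs most like the 3 over the 8 arrays, by Pearson's r among the 191 other tested miRNAs, were not those of the leukocyte list. Nearest to miR-142a-3p were miR-130a-3p (r = 0.94, rho 0.95), miR-350-3p (0.92, rho 0.90) and miR-15a-5p (0.90, rho 0.93). Nearest to miR-142a-5p were miR-130a-3p (0.93, rho 0.93), miR-15a-5p (0.92, rho 0.95) and miR-2861 (0.88, rho 0.93). Nearest to miR-223-3p were miR-350-3p (0.97, rho 0.95), miR-199a-5p (0.95, rho 0.95) and miR-199a-3p (0.94, rho 0.86). For miR-142a-3p, removing the group means left r at 0.95 for miR-130a-3p, 0.85 for miR-350-3p and 0.94 for miR-15a-5p, and for miR-223-3p it left 0.91, 0.85 and 0.81 for its 3. Without the 2 arrays farthest from the median the miR-142a-3p values fell to 0.78, 0.73 and 0.84. For miR-223-3p they were 0.96, 0.88 and 0.86. These are the highest of many values and describe these 8 arrays, and the median r was 0.13 for miR-142a-3p, 0.09 for miR-142a-5p and 0.11 for miR-223-3p.

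These nearest miRNAs differed in size of change. miR-199a-5p and miR-199a-3p, which are described as raised in fibrotic tissue, rose by 0.47 and 0.49 (adjusted p = 0.0476 for each, limma). The difference of miR-350-3p was 0.27 (adjusted p = 0.104), of miR-130a-3p 0.23 (adjusted p = 0.467), of miR-15a-5p 0.09 (adjusted p = 0.646) and of miR-2861 0.35 (adjusted p = 0.585). Of the leukocyte list only miR-146a-5p, miR-150-5p and miR-155-5p are given here, and miR-342-3p is not among them. Of those given, miR-146a-5p came closest in rank to miR-142a-3p (place 11 of 191, r = 0.81). It was also closest to miR-142a-5p (place 10, r = 0.81), while its r with miR-223-3p was 0.70 (place 22). With miR-142a-3p, miR-142a-5p and miR-223-3p, miR-150-5p had an r of 0.72, 0.73 and 0.61. miR-155-5p followed them little, at 0.33, 0.28 and -0.02 (places 69, 70 and 112).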

How the data were processed

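Kidney RNA of 8 CD-1 mouse samples (input 0.1 µg and RNA integrity number 9, per the labels) was measured on 1 slide. The authors deposited each array's scanner output as linear spot intensity, which per the file headers came from Feature Extraction version 10.7.3.1, with background subtracted, spatial trends removed and no scaling between arrays. The value table that the authors deposited held the total gene signal of that software in 100% of its entries (relative tolerance 1e-06). The submitters' processing notes name limma without a version.

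In R (4.3.3) with limma (3.58.1) and data.table (1.17.8), flagged outlier spots were left out (7.36% to 11.2% per array), spots were averaged, arrays were scaled and floored as described above, and log2 was taken. A probe was detected if a share of 0.5 or more of the spots kept for it passed the software's well-above-background flag. Of 1023 mouse miRNAs 829 were set aside by the detection filter. Groups were compared with lmFit and eBayes (two-sided, no covariate, 9.17 degrees of freedom), with Benjamini-Hochberg adjustment and a threshold of 0.05. Steps were tested on simulated data. The alternatives covered background, scaling, filter, floor, probe summary, moderation, replicate block and single arrays.

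The members, the marker lists and the rule for named miRNAs were chosen with earlier results of these data known. The rule names the 3 miRNAs and miR-223-5p, the 3 most correlated tested miRNAs of each, the 2 of smallest p in each list, and miR-451a, miR-126a-3p, miR-192-5p and miR-150-5p. The probe coordinates in the files were not used.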

Additional observations from a re-analysis of the deposited data

Results flagged for a closer look

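For 19 named miRNAs 38 groups of 4 arrays were examined, and in 1 of them a single array stood apart, as chance gives in about 1 of 20 groups. On tacrolimus 4, miR-451a lay below the mean of the other 3 tacrolimus arrays (-0.39 on the log2 scale). None of the groups of miR-142a-3p, miR-142a-5p or miR-223-3p held such an array (0).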

How the results depend on the processing

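The differences of miR-142a-3p and miR-223-3p stayed above 0 in 25 of 25 alternatives and that of miR-142a-5p in 24 of 24. miR-142a-5p was not tested where detection on all 8 arrays was required. These counts overstate the checks, since the filter, floor, moderation and block settings left miR-142a-3p at 0.64 and miR-223-3p at 0.61, as reported. The authors' value table and the total gene signal held the same values. The differences ranged from 0.50 to 1.09 for miR-142a-3p, from 0.19 (normexp background) to 1.05 for miR-142a-5p and from 0.48 to 0.80 for miR-223-3p. The highest values came under the miR-451a covariate. Without scaling the median of the 194 miRNAs was 0.19 in place of 0.04, and miR-142a-3p and miR-223-3p stood at 0.80 and 0.76. Adjusted p in limma ranged from 0.0517 to 0.995 for miR-142a-3p, from 0.0607 to 0.995 for miR-142a-5p and from 0.0323 to 0.995 for miR-223-3p, the highest with the 75th percentile of all probes. On average 12.9% of probes were detected, so that percentile lies mostly among undetected probes. The SE in that setting was 0.396 for each of the 3 miRNAs, and its p-values say little about them. Leaving out 1 array gave 0.52 to 0.83, 0.42 to 0.74 and 0.48 to 0.74, and the change of the 3p arm over the 5p arm was 0.0645 to 0.128 (exact p = 0.0286 without tacrolimus 1, where no smaller p is possible, to 0.229). The count of miRNAs past the threshold, 6 as reported and all higher, was 0 to 7 without 1 array (22 to 32 at an unadjusted p under 0.05). It was 8 with median scaling (6 higher), 7 with quantile normalization (6 higher) and 5 where detection on all 8 arrays was required (5 higher). In limma it was 1 with normexp or the scaling factor as a covariate (0 higher and 1 lower in each, with 22 and 30 at an unadjusted p under 0.05), 3 without control 3 and tacrolimus 4 (2 higher), and 0 with a floor at 2 times the value, no filter, the authors' value table, total gene signal, averaged probes, robust estimation with a trend, unscaled signals, the 75th percentile over all probes or the miR-451a covariate (2 to 32 at an unadjusted p under 0.05), and 0 without control 1 and tacrolimus 4 (37). With the replicate block, which equals slide column, the differences were 0.64, 0.55 and 0.61 (SE 0.115, 0.102 and 0.123, adjusted p = 0.0607, 0.0607 and 0.0766) and the count was 0 (31 at an unadjusted p under 0.05). Same-numbered arrays deviated together weakly (r of 0.09 to 0.14 over 194 miRNAs), and 2 of 8 arrays correlated best with their own number, so the numbers were not treated as pairs. The covariates and the fit without control 3 and tacrolimus 4 were chosen after seeing the data. The cause of these shifts was not tested. miR-142a-5p lies close to background on 2 arrays, which limits the precision of its difference.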

Other observations

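Leukocyte miRNAs outside the tested set were detected on few arrays. Of all 829 untested miRNAs 26 were detected on any array, 17 of them on tacrolimus arrays alone and 2 on control arrays alone, so that detection in the tacrolimus group alone was common among dim miRNAs. miR-146b-5p, a relative of miR-146a-5p, was detected on 3 tacrolimus arrays and 0 control arrays, miR-181d-5p on 2 and 0, and miR-511-3p, whose gene lies in that of the macrophage mannose receptor, on 1 and 0. The other 4, miR-223-5p, miR-342-5p, miR-511-5p and miR-147-3p, were detected on 0 arrays of either group. These miRNAs were singled out after their values were seen, and detection near background was not tested. The erythrocyte miR-144-5p was detected on 0 tacrolimus and 2 control arrays. Of markers of other tissues, miR-122-5p (liver) and miR-133a-3p (striated muscle) were detected on 0 arrays, and miR-1a-3p (striated muscle) on 2 tacrolimus and 0 control arrays.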
